A study of Homo sapiens with 12 samples.

Results

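Small nucleolar RNA host genes were taken as the 33 genes, of 61163 in both count tables, whose symbol is SNHG plus a number or is GAS5, ZFAS1, DANCR, EPB41L4A-AS1 or MEG8. RNA came from a nucleolar (NO) fraction and a pooled cytoplasmic-nuclear (CN) fraction of wild-type HEK293T cells (HEK WT) and of HEK293T cells with a CRISPR-Cas9 knockout of HNRNPUL1, the gene of hnRNP UL1 (HEK UL1 KO). HEK293T is an immortalised human embryonic kidney line, and neither genotype received a treatment. Each genotype and fraction had 3 libraries from biological triplicates, 12 in all, with 37141666 to 104040073 counts per library, and rRNA was not depleted. Whether HEK UL1 KO is 1 clone is not given in the sources used here, so the knockout and the history of that line cannot be told apart.

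Host genes of this kind carry small nucleolar RNAs (snoRNAs) in their introns. The introns are spliced out, opened and trimmed back to the snoRNA, which its core proteins protect, while the joined exons form a non-coding RNA that is often short-lived because nonsense-mediated decay removes it. Box C/D snoRNAs mostly guide ribose methylation and box H/ACA snoRNAs pseudouridylation of rRNA in the nucleolus, and small Cajal body RNAs (scaRNAs) do the same for spliceosomal RNAs.

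By the RefSeq annotation of GRCh38.p14, 31 of the 33 genes held at least 1 snoRNA gene on their own strand, 188 in all, of which 162 were of box C/D, 22 of box H/ACA and 4 scaRNAs. SNHG27 and SNHG28 held none. SNHG14 held 83 and MEG8 held 41, as arrays of related copies in imprinted regions, and the others held 1 to 11. The snoRNAs on which the results turn are printed 5′ to 3′ as read from GRCh38, with the box C letters TGATG, the box D letters CTGA and the ACA box in capitals where they were found at the usual place. SNHG12 (chr1:28578538-28582983, minus strand) is shown first because it holds the snoRNAs that fell most in both fractions, SNORA61 and SNORA16A.
SNORA61 (chr1:28579764-28579893, minus strand): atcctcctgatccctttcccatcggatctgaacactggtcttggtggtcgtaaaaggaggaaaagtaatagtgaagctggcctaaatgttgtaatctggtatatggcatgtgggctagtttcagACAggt
SNORA16A (chr1:28580920-28581053, minus strand): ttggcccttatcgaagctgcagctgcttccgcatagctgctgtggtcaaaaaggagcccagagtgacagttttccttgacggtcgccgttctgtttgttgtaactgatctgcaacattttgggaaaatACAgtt
SNORD99 (chr1:28578743-28578822, minus strand): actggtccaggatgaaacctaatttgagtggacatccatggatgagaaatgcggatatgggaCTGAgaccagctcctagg
SNHG3 (chr1:28505943-28510892, plus strand) holds a pair of long H/ACA snoRNAs, shown together because they differ by an edit distance of only 14, so that reads may be shared between them.
SNORA73A (chr1:28507365-28507571, plus strand): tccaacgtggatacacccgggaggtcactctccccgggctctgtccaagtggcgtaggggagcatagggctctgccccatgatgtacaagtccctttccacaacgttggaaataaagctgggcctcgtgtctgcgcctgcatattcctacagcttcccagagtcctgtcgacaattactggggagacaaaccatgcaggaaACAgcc
SNORA73B (chr1:28508558-28508762, plus strand): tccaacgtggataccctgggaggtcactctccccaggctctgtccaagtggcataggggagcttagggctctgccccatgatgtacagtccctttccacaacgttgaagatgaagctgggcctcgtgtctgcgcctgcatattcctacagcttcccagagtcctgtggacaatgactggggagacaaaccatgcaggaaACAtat
The last lines show the most abundant snoRNA of GAS5 (chr1:173863901-173869045, minus strand), the only snoRNA of SNHG15 (chr7:44983023-44986696, minus strand), which fell while the rest of its gene did not pass the test, and the single member snoRNA called higher in HEK UL1 KO, from SNHG29 (chr17:16438987-16470648, plus strand).
SNORD76 (chr1:173866635-173866715, minus strand): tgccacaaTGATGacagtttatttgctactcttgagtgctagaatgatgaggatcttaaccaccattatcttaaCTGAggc
SNORA9 (chr7:44985378-44985510, minus strand): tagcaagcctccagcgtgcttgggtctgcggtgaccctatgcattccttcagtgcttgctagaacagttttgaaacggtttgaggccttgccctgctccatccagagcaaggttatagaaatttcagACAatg
SNORD49A (chr17:16440036-16440106, plus strand): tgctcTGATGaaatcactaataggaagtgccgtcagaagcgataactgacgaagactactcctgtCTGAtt

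The deposited count of a host gene was not a count of its spliced transcript. For 248 of the 249 annotated genes that hold a snoRNA gene on their own strand, the gene count was at least the sum of its snoRNA counts in all 12 libraries, and the exception was SNHG3 in 1 library. Of 323 genes inside an intron of another gene on the same strand, 96.3% had no more counts than the outer gene in any library, against 51.9% of 376 on the opposite strand. Of 631 inner genes that overlapped an exon of the outer gene on the same strand it was 99.5%, against 57.6% of 184 on the opposite strand. Many member snoRNAs lie inside an exon of the GENCODE annotation, as 8 of 8 in SNHG1 and 10 of 11 in GAS5, but 28 of 83 in SNHG14. Reads in a snoRNA gene inside a host were thus also counted for the host, by strand. Each host was therefore also counted without the snoRNA genes inside it. This remainder holds the exons and the rest of the introns, which the tables do not separate, so it is the nearest measure of the host transcript and not the spliced RNA alone.

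The snoRNA share of the host count ranged widely. In NO of HEK WT it was above 50% in 19 of 31 loci, with a median of 63.6%, and in CN it was above 50% in 5 of 31, with a median of 10.6%. SNHG12 had 96.4% ± 1.51 (SD, n = 3) in NO and 68.8% ± 2.18 in CN. GAS5, a host named for its rise in growth-arrested cells, had 87.4% ± 3.59 and 41.4% ± 3.9. The gene count of such hosts in NO was thus mostly snoRNA. SNHG16 had less, with 29.6% ± 12.3 in NO and 1.06% ± 0.0797 in CN, and SNHG31 had the lowest mean in NO, 1.15% ± 0.811.

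In CN the share was lower in HEK UL1 KO in 24 of 30 loci, and in 11 of these the groups did not overlap. SNHG7 went from 50.2 to 22.9% and SNHG12 from 68.8 to 44%. Groups did not overlap in the other direction in 4 loci, namely SNHG10 (76.3 to 85.6%), SNHG22 (7 to 23.5%), SNHG29 (5.75 to 7.04%) and MEG8 (0 to 4.99%). The share of MEG8 rests on 1 snoRNA count in each HEK UL1 KO library and 0 in each HEK WT library. The exact two-sided permutation test of 3 libraries against 3 cannot go below p = 0.1, so none of these shares could pass 0.05 alone. Among loci with a mean of at least 10 counts of each kind, 11 of 20 of these hosts were lower without overlap and 2 higher, against 48.7% and 3.48% of all 115 annotated loci. In NO the share was lower in 28 of 31 loci, and the groups overlapped in every one, the 24 with enough counts included, where 4.82% of 166 loci were lower without overlap and 0.0% higher.

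**Figure D1:**
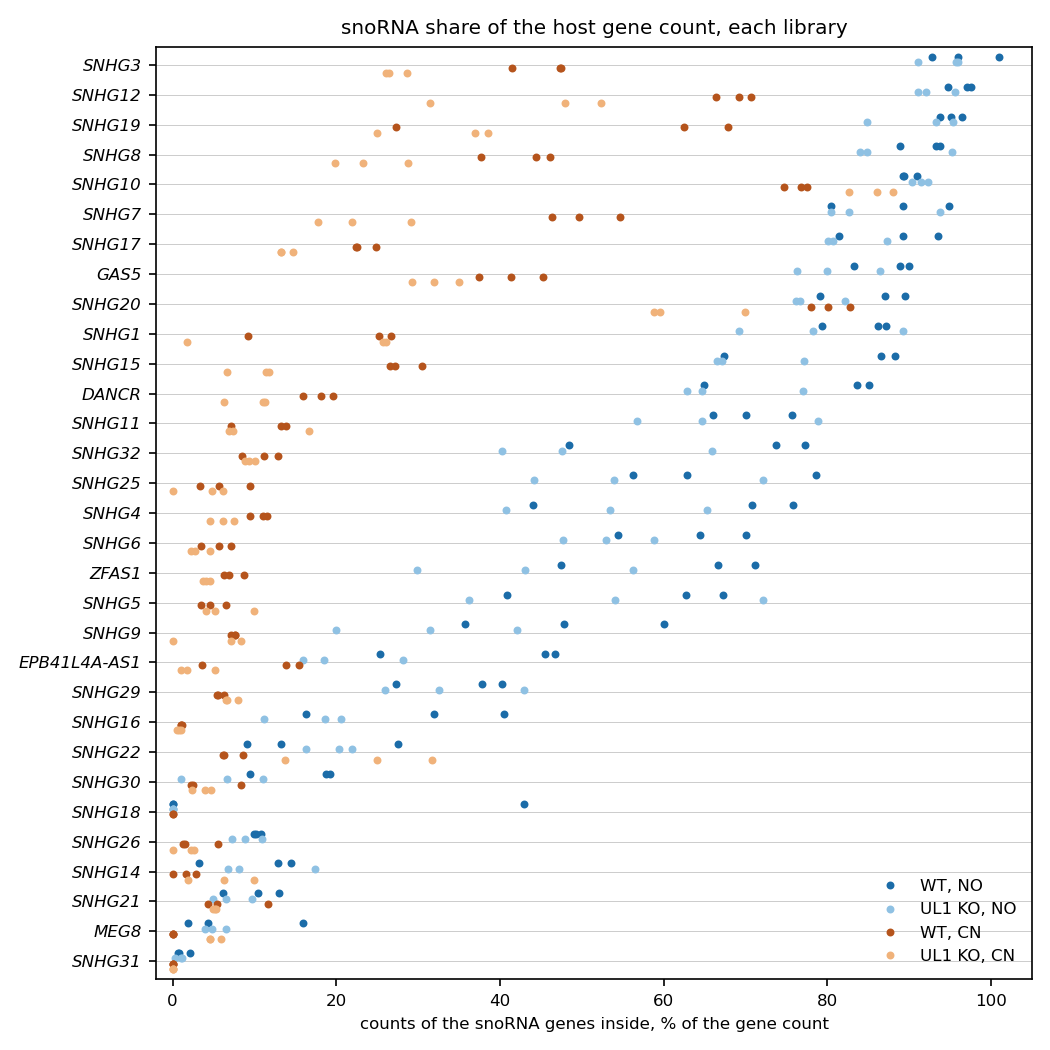
Counts of the snoRNA genes inside each host as a percentage of the host gene count (x axis) for the 31 genes that hold a snoRNA (y axis, ordered by the mean in NO of HEK WT), 1 point per library and 3 libraries for each genotype and fraction. In HEK WT the median is 63.6% in NO (dark blue) and 10.6% in CN (brown). For SNHG3 the snoRNA sum exceeds the gene count in 1 library of NO.

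HNRNPUL1, the targeted gene, was lower in every knockout library without being absent. In NO it was at 15.2, 21.6 and 9.3 CPM (counts scaled to library size with TMM factors) in HEK WT and at 4.09, 3.86 and 3.57 CPM in HEK UL1 KO (-2.0 ± 0.323, adjusted p = 0.00649). In CN it was at 17.8, 15.4 and 18 CPM in HEK WT and at 4.75, 4.8 and 4.86 CPM in HEK UL1 KO (-1.83 ± 0.0828, adjusted p = 2.12e-07). Here and throughout, values in brackets are the log2 fold change with its SE and the p-value of edgeR's quasi-likelihood test, adjusted over all genes tested, and a gene was called at an adjusted p under 0.05. These p-values measure the spread between the libraries of each group.

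The HEK WT libraries of NO were unlike each other, with TMM factors of 0.69, 0.622 and 1.4, against 1.34, 1.09 and 1.15 in HEK UL1 KO. Replicate 3 thus differed from the other HEK WT libraries of NO and lay near the knockout ones, and the main counts of calls in NO are given with and without it. In CN, HEK WT replicate 3 had a factor of 0.76 against 1.01 to 1.09 in the others, and without it 14 host genes and 28 member snoRNAs were called between genotypes in CN, against 15 and 27 with it. Over all genes 10301 of 28619 were called without it and 10323 of 27234 with it. Scaling by total counts moved the median of all genes up by 0.4 on the log2 scale in NO. In bulk RNA, fewer cells of a type and less RNA per cell cannot be told apart.

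The comparison of fractions asked where the host genes were found. By the gene count, 21 of 32 host genes tested were higher in NO than in CN of HEK WT and 1 was lower (SNHG16), with a median log2 fold change of 1.05. Of all 29340 genes, 31.9% were higher and 20.9% lower, with a median of 0.02. Without the snoRNA genes, 3 host genes were higher and 5 lower, and the median was -0.31, against 31.8% and 20.7% of all genes. SNHG12 changed from 3.56 ± 0.292 to 0.31 ± 0.239, SNHG8 from 3.0 ± 0.305 to 0.07 ± 0.219 and GAS5 from 2.4 ± 0.255 to 0.13 ± 0.178.

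The 3 genes that were higher in NO without their snoRNAs were SNHG14 (3.16 ± 0.561), SNHG28 (2.43 ± 0.531) and MEG8 (2.22 ± 0.532). The 5 lower ones were SNHG16 (-1.22), ZFAS1 (-0.77), SNHG6 (-0.74), SNHG4 (-0.71) and SNHG17 (-0.6). Of these, SNHG17, SNHG4, SNHG6 and ZFAS1 had been higher in NO by the gene count, by 2.19, 0.71, 0.61 and 0.57. With total-count scaling, 19 host genes were higher by the gene count and 0 lower, against 21.8% and 2.07% of all genes, and the median of all genes was 0.37. That scaling without the snoRNA genes gave the same 3 higher, and of the 5 lower genes SNHG16 alone passed (-1.0), the others having -0.48 to -0.33. The host median was then 0.02, and SNHG12, SNHG8 and GAS5 had 0.72, 0.41 and 0.42 without passing. Of all genes 21.6% were higher and 2.07% lower.

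The snoRNAs themselves were mostly higher in NO. Of the 57 member snoRNAs that passed the filter on low counts, 53 were higher in NO of HEK WT, with a median of 3.62, where 31.9% of all genes were higher. SNORD76 of GAS5 was higher by 4.17 ± 0.305 and SNORA61 of SNHG12 by 3.15 ± 0.368. The others were SCARNA15 (-0.01) and SCARNA16 (0.17), of a class known from Cajal bodies, and SNORA103 (-0.34) and SNORD77 (0.46), both inside GAS5. None of these 4 passed the test. In HEK UL1 KO, 51 of 55 were higher in NO and 1 lower (SNORA103, -0.53), with a median of 3.02, against 40.7% and 35.6% of all genes.

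In HEK UL1 KO, 16 host genes were higher in NO by the gene count and 5 lower, against 40.7% and 35.6% of 34468 genes. Without the snoRNA genes, 4 were higher (SNHG14, MEG8, SNHG28 and SNHG27) and 19 lower, with a median of -0.6. GAS5 changed from 1.38 ± 0.174 to -0.49 ± 0.146, which became 0.27 with total-count scaling, and SNHG3 from 2.98 ± 0.27 to -0.85 ± 0.181, which became -0.08. The split into higher and lower rested on the scaling. With total counts the median of all genes was 0.79, with 53.6% higher and 2.39% lower, and 24 host genes were higher by the gene count and 1 lower. The same scaling without the snoRNA genes gave 6 higher and 2 lower (SNHG1 and SNHG16), with a median of 0.17.

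**Figure D2:**
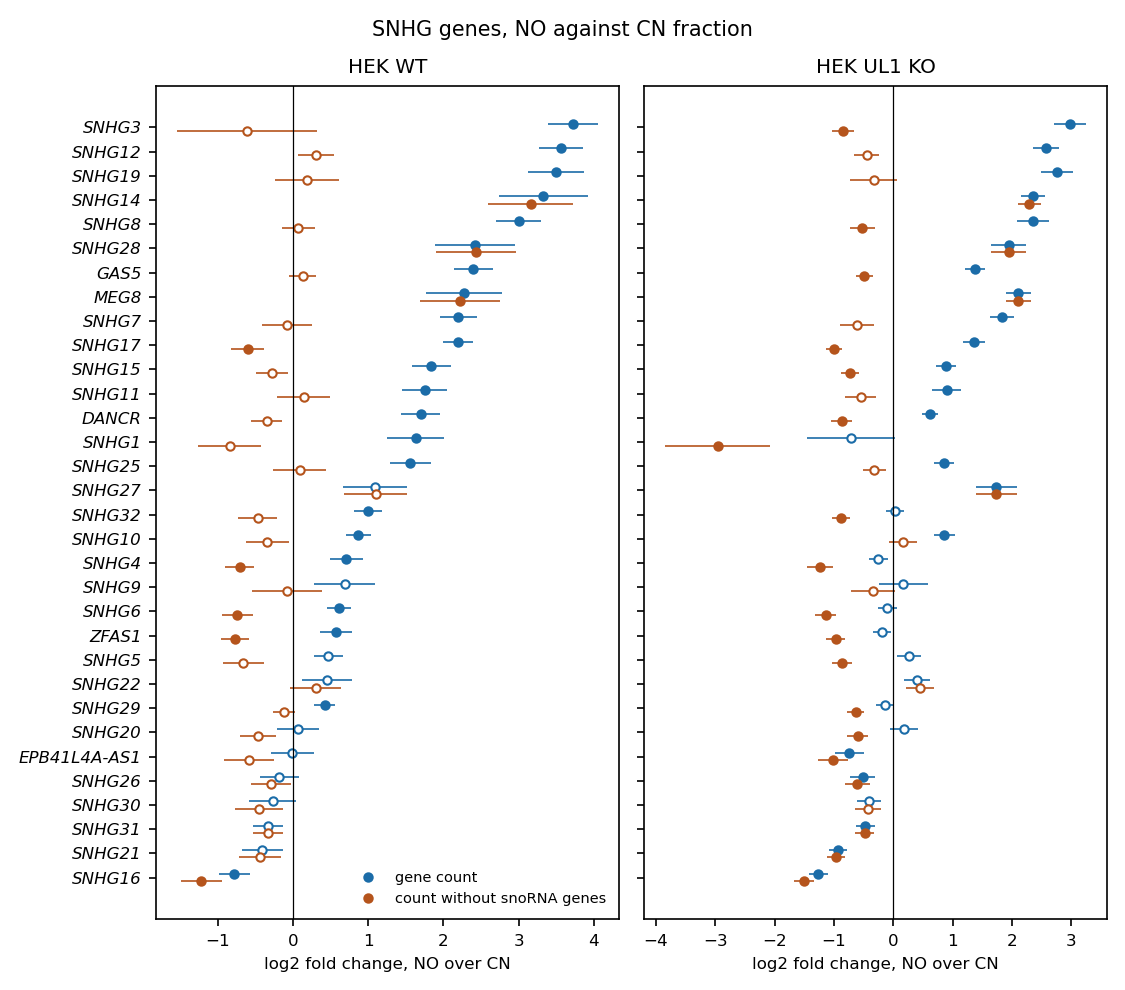
Log2 fold change of NO over CN (x axis, bars are the SE) for the 32 host genes tested (y axis), in HEK WT (left) and HEK UL1 KO (right), by the gene count (blue) and by the count without snoRNA genes (brown). Filled points passed an adjusted p under 0.05, and in HEK WT these are 21 blue points above 0 and 3 brown ones.

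In CN, the comparison of genotypes gave 13 of 31 host genes lower in HEK UL1 KO by the gene count and 2 higher, with a median log2 fold change of -0.22. Of all 27234 genes, 22.3% were lower and 15.6% higher, with a median of 0.04. The lower genes were SNHG12, SNHG3, SNHG27, SNHG7, SNHG8, SNHG20, GAS5, SNHG5, SNHG31, DANCR, SNHG6, SNHG4 and SNHG17, and the higher ones SNHG14 and SNHG32. Without the snoRNA genes, 11 were lower and 2 higher, and the median was -0.06. SNHG7, SNHG17 and SNHG20 no longer passed and SNHG10 did. Scaled by total counts, 6 were lower and 1 higher, against 6.33% and 13.6% of all genes. The median of the host genes was then -0.01 and that of all genes 0.24. The calls of single host genes in CN given below are those with TMM, and total-count scaling called 7 in place of 15.

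In NO, 4 of 32 host genes were lower by the gene count (SNHG12, SNHG3, DANCR and SNHG7) and 0 higher, with a median of -0.62, against 0.0 over all genes. Of all 34836 genes, 0.574% were lower and 0.365% higher. The groups did not overlap, with HEK UL1 KO lower, in 13 host genes, as in 9.17% of all genes. Without the snoRNA genes SNHG12 alone passed, against 0.545% of all genes lower and 0.35% higher, and the median was -0.33.

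The number called in NO rested on single libraries. SNHG12 was called without any 1 of the 6 libraries. SNHG3 was not called without HEK WT replicate 1 (-1.88) or HEK UL1 KO replicate 2 (-1.87) or 3 (-1.74). DANCR and SNHG7 were not called without HEK WT replicate 1 (-1.23 and -1.18) or any 1 of the HEK UL1 KO libraries (-1.53 to -1.49 and -1.42 to -1.19). Without HEK WT replicate 3, 21 host genes were called, 19 of them lower, among 9133 of 36336 genes, of which 15.3% were lower and 9.87% higher. Without HEK WT replicate 1 or HEK UL1 KO replicate 3 the number was 1, and without HEK UL1 KO replicate 1 or 2 it was 2. Over all genes these fits called 123 of 35817, 217 of 37197, 266 of 34606 and 164 of 36849, in that order. DESeq2 called 12, all lower, among 1082 of 61163 genes called. None was called after scaling by total counts, where 10 of 34836 genes were. The log2 fold change there was -2.31 for SNHG12 and -1.11 for DANCR. The median of the host genes was -0.13, against 0.4 over all genes.

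The knockout effects in NO and CN were compared as an interaction over all 12 libraries. edgeR called 0 of 32 host genes, against 0.114% of 37806 genes, and DESeq2 called 0. An unadjusted p under 0.05 was found for 5 host genes and for 3.32% of all genes. Of 58 member snoRNAs edgeR called 0, and 2 had an unadjusted p under 0.05.

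SNHG12 fell most among the host genes in both fractions. In CN it was at 3.69, 3.1 and 4.06 CPM in HEK WT and at 1.03, 1.12 and 0.912 CPM in HEK UL1 KO, 3.53-fold lower (-1.82 ± 0.145, adjusted p = 8.62e-06). In NO it was at 67.7, 39.7 and 65.4 CPM in HEK WT and at 8.41, 12.3 and 7.11 CPM in HEK UL1 KO, 6.22-fold lower (-2.64 ± 0.357, adjusted p = 0.00141). The groups did not overlap in either fraction. Without its snoRNAs SNHG12 was 2-fold lower in CN (-1.0 ± 0.181, adjusted p = 0.00154) and 3.07-fold lower in NO (-1.62 ± 0.294, adjusted p = 0.0152). These remainders in CN rested on 87 to 99 counts per library in HEK WT and on 37 to 40 in HEK UL1 KO.

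All 4 snoRNAs of SNHG12 were lower in NO, whatever their box class. SNORA61, printed first among the sequences, was at 15.4, 6.68 and 14.4 CPM in HEK WT and at 1.56, 2.17 and 1.38 CPM in HEK UL1 KO (-2.84 ± 0.347, adjusted p = 0.000503). In CN it was at 1.09, 0.802 and 1.18 CPM in HEK WT and at 0.137, 0.187 and 0.0506 CPM in HEK UL1 KO, 7.84-fold lower (-2.97 ± 0.341, adjusted p = 8.5e-05), without overlap. This fold rests on few counts, since all snoRNAs of SNHG12 together had 36, 44 and 17 counts in HEK UL1 KO there. SNORA16A, the most abundant of them in NO, was at 28, 18.1 and 27.6 CPM in HEK WT and at 3.74, 4.47 and 3.33 CPM in HEK UL1 KO (-2.68 ± 0.312, adjusted p = 0.000283) and fell by 2.54 in CN. SNORA44 fell by 2.66 in NO and 2.0 in CN, and the box C/D snoRNA SNORD99 by 2.41 in NO, while in CN it did not pass the count filter.

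SNHG3 came next, and its snoRNAs are the U17 RNAs, which act in cleavage of the rRNA precursor. In CN the gene count was 9.25, 10.2 and 11.5 CPM in HEK WT and 4.05, 4.18 and 3.43 CPM in HEK UL1 KO, 2.64-fold lower (-1.4 ± 0.107, adjusted p = 6.56e-06). Without the snoRNAs it was 5.42, 5.37 and 6.02 CPM in HEK WT and 2.98, 3.09 and 2.45 CPM in HEK UL1 KO (-0.98 ± 0.11, adjusted p = 7.64e-05). The groups did not overlap on either count. In NO the gene count was 196, 119 and 230.0 CPM in HEK WT and 66.2, 43.5 and 29.9 CPM in HEK UL1 KO (-1.97 ± 0.419, adjusted p = 0.0348). SNORA73B, the more abundant of the pair, was at 2.66, 3.4 and 3.66 CPM in HEK WT and at 0.793, 0.853 and 0.574 CPM in HEK UL1 KO in CN, 4.33-fold lower (-2.11 ± 0.18, adjusted p = 1.3e-05), and fell by 1.93 in NO. SNORA73A fell by 2.27 and 2.19. The remainder of SNHG3 was set to 0 in HEK WT replicate 3 of NO, where the snoRNA sum exceeded the gene count, so no change of it was read in NO. SNHG3 also overlaps RCC1 in part on the same strand, and reads in the shared bases cannot be told apart.

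GAS5 holds 10 box C/D snoRNAs and 1 of box H/ACA. In CN its gene count was 20.2, 19.2 and 20.6 CPM in HEK WT and 12.1, 12.1 and 11.6 CPM in HEK UL1 KO (-0.74 ± 0.0676, adjusted p = 1.97e-05). Without the snoRNAs it was 11.9, 12 and 11.2 CPM in HEK WT and 7.89, 8.25 and 8.2 CPM in HEK UL1 KO (-0.53 ± 0.0706, adjusted p = 0.000233). Both falls were without overlap. In NO the gene count was 202, 112 and 122 CPM in HEK WT and 47.7, 55.4 and 38.7 CPM in HEK UL1 KO, also without overlap, and missed the threshold (-1.62 ± 0.379, adjusted p = 0.051). Without HEK WT replicate 3 it passed, at -1.75 (adjusted p = 0.00293). Of its snoRNAs, 8 of 9 tested were lower in CN. SNORD76 was at 58, 31.8 and 36.6 CPM in HEK WT and at 13.3, 19.1 and 8.84 CPM in HEK UL1 KO in NO (-1.62 ± 0.359, adjusted p = 0.0396) and fell by 1.21 in CN.

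Over all hosts, 26 of the 43 member snoRNAs that passed the filter in CN were lower in HEK UL1 KO and 1 higher, with a median of -1.08, where 22.3% of all genes were lower and 15.6% higher. In NO, 21 of 57 were lower and 0 higher, with a median of -1.26, where 0.574% of all genes were lower. With total-count scaling, 0 were lower in NO, where 0.00861% of all genes were, and the median was -0.83. In CN 17 were then lower and 1 higher, with a median of -0.87, where 6.33% of all genes were lower and 13.6% higher. Called without each library in turn were 19 of the 27 in CN and 6 of the 21 in NO, the latter being the 4 of SNHG12 with SNORD47 and SNORD79 of GAS5. Those not called in CN without some library were SNORA103, SNORA71A, SNORA71B, SNORA74A, SNORA74D, SNORD26, SNORD28 and SNORD49A. No snoRNA of the SNHG14 or MEG8 arrays passed the filter, so these counts describe the detected snoRNAs of the other hosts only. In CN, 16 of 17 box H/ACA snoRNAs were lower, with a median of -1.59, as were 9 of 23 of box C/D, with a median of -0.94. In NO, 9 of 20 box H/ACA snoRNAs were lower, with a median of -1.42, as were 12 of 34 of box C/D, with a median of -1.2. The difference between the classes was not tested. In NO without HEK WT replicate 3, 46 member snoRNAs were lower, where 15.3% of all genes were, and without HEK WT replicate 1 or HEK UL1 KO replicate 3 there were 7 and 9. Over all genes 63 of 35817 and 129 of 37197 were lower in the latter fits, in that order.

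SNORD49A of SNHG29 was the single member snoRNA called higher. In CN it was at 0.119, 0.132 and 0.152 CPM in HEK WT and at 0.342, 0.28 and 0.287 CPM in HEK UL1 KO (1.17 ± 0.324, adjusted p = 0.0161), without overlap, and its log2 fold change in NO was -0.02 ± 0.398. The call in CN was lost with DESeq2 (adjusted p = 0.08), without HEK WT replicate 1 (1.09, edgeR adjusted p = 0.0567) and without HEK UL1 KO replicate 1 (1.05, edgeR adjusted p = 0.0864). SNORD49B, beside it in SNHG29, had 0.49 ± 0.296, adjusted p = 0.21 in CN and did not pass. Most of the 48 bases of SNORD49B occur as an identical stretch in SNORD49A, so reads may be shared between them.

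**Figure D3:**
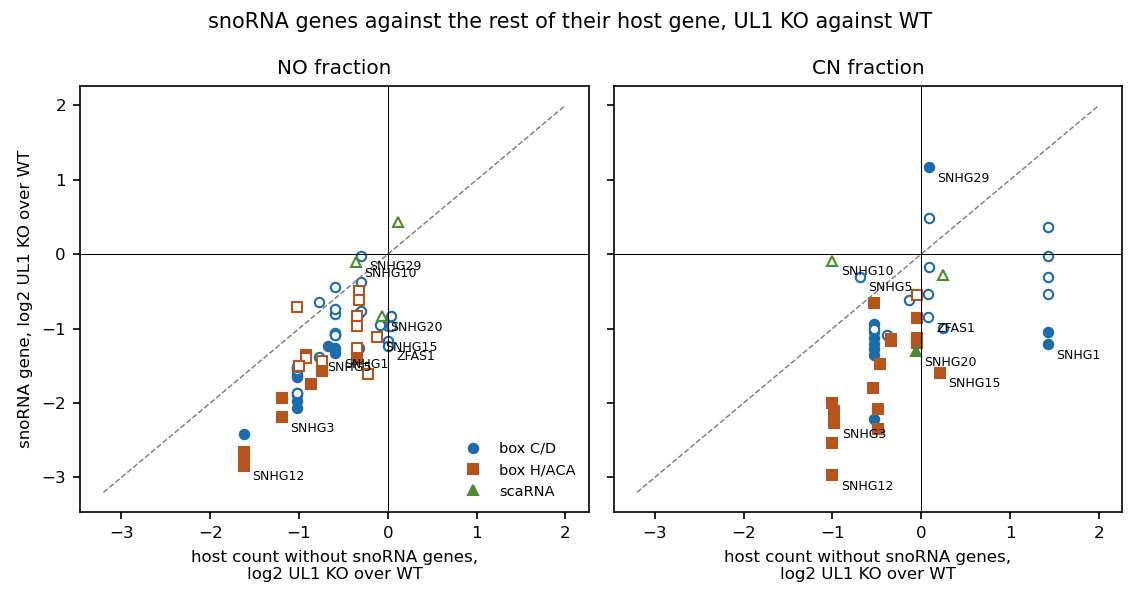
Log2 fold change of HEK UL1 KO over HEK WT for each member snoRNA (y axis) against that of its host counted without snoRNA genes (x axis), in NO (left) and CN (right), with box C/D as circles, box H/ACA as squares and scaRNAs as triangles. Filled symbols passed an adjusted p under 0.05 for the snoRNA and the dashed line marks equal change. In CN, 26 of 43 snoRNAs tested were lower, SNORA9 of SNHG15 among them at a host change of 0.21.

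The ratio of snoRNA to host counts within a library does not depend on scaling between libraries. It was tested with limma over all loci of the annotation that hold a snoRNA. Against the gene count, 11 of 20 host loci had a lower ratio in CN of HEK UL1 KO and 0 a higher one, where 33.0% of all 115 loci were lower. The median log2 change was -0.68, against -0.51 in the 95 other hosts. The other hosts of the annotation include RCC1, MATR3 and SEC14L1, which overlap SNHG3, SNHG4 and SNHG20, so the sets are not fully separate. Against the count without snoRNA genes, 10 of the 20 host loci had a lower ratio and 1 a higher one (SNHG10), against 32.2% of all loci lower. The number called against the gene count was 3 without HEK WT replicate 3 of CN, 5 without replicate 1 or 2 and 7 without HEK UL1 KO replicate 3.

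In NO, limma called 0 of 24 host loci and 0 of all 166 on either count. Against the gene count, 21 of the 24 had a negative change and 0 had an unadjusted p under 0.05. The gene count contains the snoRNA reads, whose share was over 80% in 11 of 31 loci in NO of HEK WT. Where the share was that high, this ratio had little room to change. The median log2 change over the 24 loci was -0.1 against the gene count and -0.69 against the remainder. Against the remainder 1 locus had an unadjusted p under 0.05, SNHG3, where it rests on the remainder set to 0. That library gave SNHG3 a log2 ratio of 14.75, and limma shares the spread among loci when it sets each SE. GAS5 thus had an SE of 0.989 there, against 0.0739 with the gene count. The 0 calls against the remainder therefore cannot show that the ratios of the other loci did not change.

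In CN, 19 loci had both a tested snoRNA and a tested remainder. In 6 both were lower (SNHG3, SNHG12, GAS5, DANCR, SNHG8 and SNHG4), in 5 only snoRNAs were (SNHG15, SNHG7, SNHG1, SNHG20 and SNHG17), in 3 only the remainder was (SNHG5, SNHG6 and SNHG10), and in 5 neither was (SNHG21, SNHG19, SNHG29, SNHG16 and ZFAS1). A threshold passed on 1 side only does not show that the sides differ, for which the ratio is the test.

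Of the 20 host loci tested with limma in CN, SNHG15 had the lowest change of the snoRNA ratio against the rest of the gene. SNORA9 was at 0.784, 0.85 and 0.835 CPM in HEK WT and at 0.274, 0.347 and 0.186 CPM in HEK UL1 KO in CN (-1.59 ± 0.25, adjusted p = 0.000658), without overlap. The remainder was at 2.1, 1.94 and 2.3 CPM in HEK WT and at 2.13, 2.6 and 2.62 CPM in HEK UL1 KO (0.21 ± 0.13, adjusted p = 0.223), with overlap. The ratio of SNORA9 to the remainder was 0.375, 0.44 and 0.364 in HEK WT and 0.131, 0.136 and 0.074 in HEK UL1 KO, a log2 change of -1.84 ± 0.281 (limma, adjusted p = 0.000313).

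SNHG20 (chr17:77088643-77094986, plus strand) and SNHG7 (chr9:136724594-136728184, minus strand) fell in CN by their gene counts, and the rest of each gene did not pass the test. The gene count of SNHG20 was 6.09, 8.7 and 6.49 CPM in HEK WT and 3.52, 4.56 and 2.79 CPM in HEK UL1 KO (-0.96 ± 0.177, adjusted p = 0.00169), and that of SNHG7 was 1.28, 1.47 and 1.34 CPM in HEK WT and 0.615, 0.733 and 0.54 CPM in HEK UL1 KO (-1.11 ± 0.175, adjusted p = 0.00067). Neither overlapped between genotypes. SCARNA16 of SNHG20 was at 4.88, 7.2 and 5.06 CPM in HEK WT and at 2.09, 3.19 and 1.64 CPM in HEK UL1 KO (-1.3 ± 0.221, adjusted p = 0.00109), and the remainder had -0.06 ± 0.155, adjusted p = 0.766. SNORA17B, the more abundant snoRNA of SNHG7, was at 0.333, 0.503 and 0.468 CPM in HEK WT and at 0.0547, 0.147 and 0.101 CPM in HEK UL1 KO (-2.08 ± 0.387, adjusted p = 0.00182), and the remainder had -0.49 ± 0.21, adjusted p = 0.0906. Both snoRNAs were without overlap, and the ratio to the remainder fell by 1.27 for SNHG20 (limma, adjusted p = 0.000756) and by 1.73 for SNHG7 (limma, adjusted p = 0.000663). The snoRNAs of SNHG7 together had only 8, 16 and 7 counts in CN of HEK UL1 KO. In NO the gene count of SNHG7 was 9.58, 6.31 and 9.5 CPM in HEK WT and 3.37, 4.14 and 2.77 CPM in HEK UL1 KO (-1.31 ± 0.284, adjusted p = 0.0379). SNHG20 overlaps SEC14L1 in part.

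SNHG17 holds 4 copies of SNORA71 among which reads may be shared, since SNORA71A differs from the others by edit distances of 24 to 27. In CN, SNORA71A, SNORA71B and SNORA71D were lower (-0.86, -1.19 and -1.12), and SNORA71C had -0.55 without passing. The gene count was lower by a narrow margin (-0.22 ± 0.0773, adjusted p = 0.049) and was not called with DESeq2 or without any 1 of the 6 libraries (-0.28 to -0.18). SNORA71A was not called without HEK UL1 KO replicate 2 (-0.81) or 3 (-0.79), and SNORA71B not without HEK WT replicate 1 (-1.06) or HEK UL1 KO replicate 1 (-1.12) or 3 (-1.03). The remainder had -0.05 ± 0.0827, and the ratio to it fell by 0.93 (limma, adjusted p = 0.00243).

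SNHG8, DANCR and SNHG4 hold 1 or 2 box H/ACA snoRNAs, and both these and the rest of each gene were lower in CN. The gene count of SNHG8 in CN was 3.74, 2.54 and 3.1 CPM in HEK WT and 1.61, 1.68 and 1.52 CPM in HEK UL1 KO (-0.96 ± 0.152, adjusted p = 0.000689), and that of DANCR was 3.09, 2.86 and 3.91 CPM in HEK WT and 2.07, 2.29 and 2.16 CPM in HEK UL1 KO (-0.59 ± 0.135, adjusted p = 0.00587). SNORA24 of SNHG8 was at 1.66, 0.957 and 1.43 CPM in HEK WT and at 0.465, 0.333 and 0.355 CPM in HEK UL1 KO in CN (-1.8 ± 0.251, adjusted p = 0.000299), and the remainder fell by 0.54. SNORA26 of DANCR, a host named for its part in keeping cells undifferentiated, was at 0.606, 0.455 and 0.708 CPM in HEK WT and at 0.233, 0.253 and 0.135 CPM in HEK UL1 KO in CN (-1.48 ± 0.308, adjusted p = 0.00359), and the remainder fell by 0.46. DANCR was also lower in NO, at 19.4, 10.6 and 13.7 CPM in HEK WT and at 4.9, 5.32 and 5.04 CPM in HEK UL1 KO (-1.52 ± 0.296, adjusted p = 0.0232). SNORA74A of SNHG4 fell by 1.14 in CN and 1.57 in NO, and the remainder by 0.34 in CN. The ratios to the remainder fell by 1.24, 1.06 and 0.87, each past the threshold in limma. SNHG4 lies inside MATR3 on the same strand, so its reads and those of MATR3 cannot be told apart.

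In SNHG10 (chr14:95532912-95534872, minus strand) the host fell and the scaRNA did not pass the test. The remainder was at 0.713, 0.802 and 0.747 CPM in HEK WT and at 0.383, 0.4 and 0.338 CPM in HEK UL1 KO in CN, 2.01-fold lower (-1.0 ± 0.209, adjusted p = 0.00352) and without overlap. SCARNA13 was at 2.1, 2.66 and 2.57 CPM in HEK WT and at 1.83, 2.93 and 2.09 CPM in HEK UL1 KO (-0.09 ± 0.176, adjusted p = 0.704), with overlap. The ratio of SCARNA13 to the remainder was 2.93, 3.3 and 3.42 in HEK WT and 4.72, 7.23 and 6.07 in HEK UL1 KO, higher by 0.88 ± 0.217 (limma, adjusted p = 0.00503).

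**Figure D4:**
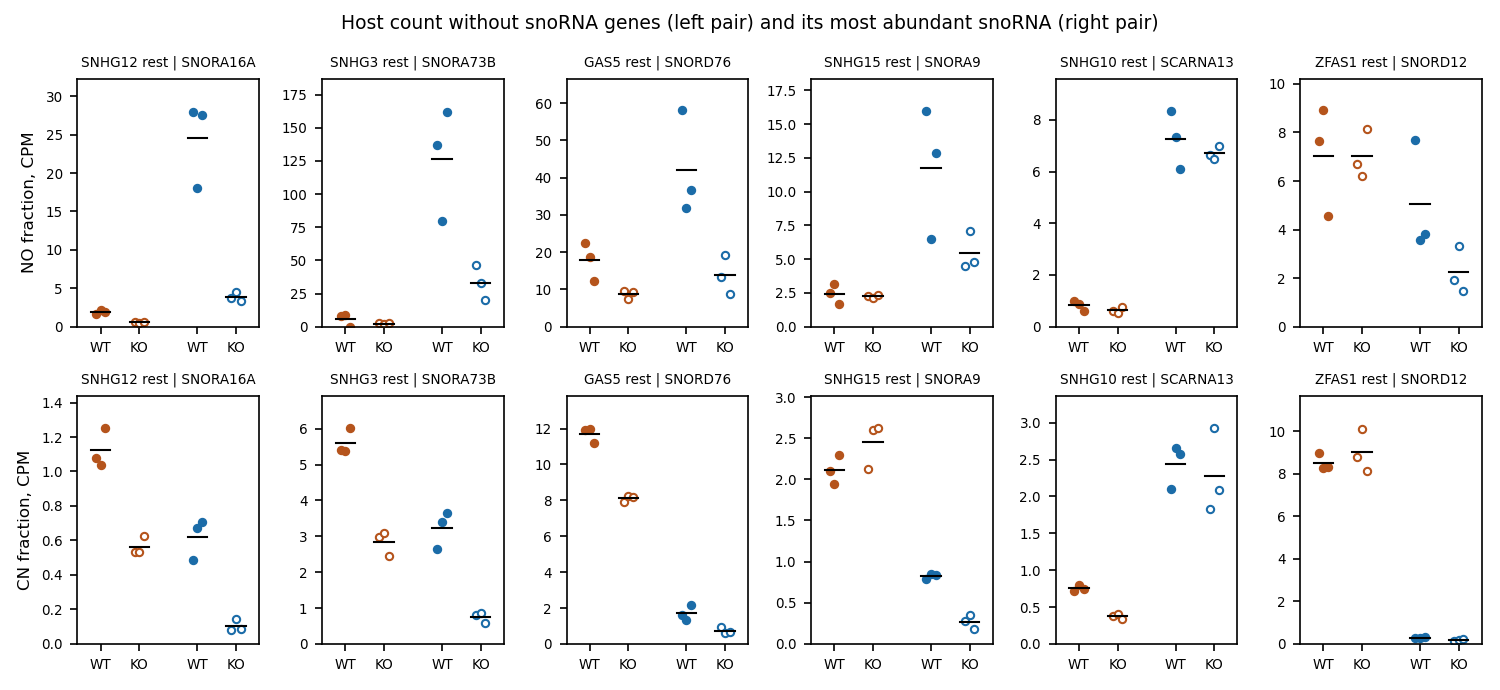
CPM in each library (y axes from 0, scaled by TMM factors) of 6 host genes counted without snoRNA genes (brown, left pair) and of their most abundant snoRNA in NO of HEK WT (blue, right pair), in NO (top) and CN (bottom), with HEK WT filled, HEK UL1 KO open and the mean of 3 libraries as a line. In CN, SNORA9 does not overlap between genotypes while the rest of SNHG15 does, and the reverse holds for SCARNA13 and the rest of SNHG10.

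SNHG5 and SNHG6 were lower in CN by the remainder. SNHG5 without its snoRNAs was at 9.39, 7.35 and 6.33 CPM in HEK WT and at 4.58, 5.33 and 4.41 CPM in HEK UL1 KO (-0.69 ± 0.138, adjusted p = 0.00292). SNORD50A of SNHG5 had -0.3 ± 0.414, and the ratio changed by 0.38 ± 0.359 (limma, adjusted p = 0.397), so a difference between snoRNA and host was not shown. SNHG6 without its snoRNA had -0.39 ± 0.127, adjusted p = 0.034, and by the gene count -0.42 ± 0.125, adjusted p = 0.0232, a call lost without HEK WT replicate 1 or 2 or HEK UL1 KO replicate 2 or 3 (-0.4 to -0.3). SNORD87 had -1.08 ± 0.435, adjusted p = 0.0719 in CN and was lower in NO (-1.24 ± 0.265, adjusted p = 0.0351). SNHG31, a long gene whose count was almost free of snoRNA reads in CN and which contains the pseudogene RPL10P6, was at 10.5, 7.63 and 10.6 CPM in HEK WT and at 7, 6.49 and 5.59 CPM in HEK UL1 KO (-0.59 ± 0.132, adjusted p = 0.00529). Its gene count in CN was 331 to 885 per library, and RPL10P6 had a mean count of 244.9. The part of the pseudogene in this fall was not tested.

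ZFAS1 (chr20:49278178-49289260, plus strand) overlapped between genotypes in CN by the gene count, at 9.59, 8.85 and 9.12 CPM in HEK WT and at 9.15, 10.5 and 8.53 CPM in HEK UL1 KO (0.03 ± 0.0888, adjusted p = 0.799). SNORD12, its most abundant snoRNA, was at 0.273, 0.287 and 0.304 CPM in HEK WT and at 0.15, 0.2 and 0.253 CPM in HEK UL1 KO there (-0.53 ± 0.318, adjusted p = 0.212), lower without overlap but not past the threshold. The ratio of its snoRNAs to the remainder was 0.0681, 0.0747 and 0.0964 in HEK WT and 0.0428, 0.0389 and 0.0487 in HEK UL1 KO, a change of -0.86 ± 0.251 (limma, adjusted p = 0.0145).

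SNHG1, a host of 8 box C/D snoRNAs, was uneven between libraries of CN. Its gene count was 24.5, 8.58 and 9.01 CPM in HEK WT and 7.08, 6.38 and 87 CPM in HEK UL1 KO, so HEK WT replicate 1 and HEK UL1 KO replicate 3 stood above the rest. The excess lay outside the snoRNA genes, whose share was 9.22 and 1.71% in these 2 libraries and 25.2 to 26.7% in the others. The change was 1.25 ± 0.842, adjusted p = 0.263, and without HEK UL1 KO replicate 3 it was -1.04 (adjusted p = 0.0887). Without HEK WT replicate 1 it was 1.92 (adjusted p = 0.154). In NO the gene count was 77, 51.1 and 50.3 CPM in HEK WT and 32.7, 35.5 and 23 CPM in HEK UL1 KO, lower without overlap and not called (-0.97 ± 0.336, adjusted p = 0.175). SNORD26 was lower in both fractions (-1.21 in CN and -1.26 in NO), and SNORD22 in NO (-1.33). SNORD28, the most abundant of the 8 in NO, was lower in CN, at 0.345, 0.419 and 0.354 CPM in HEK WT and at 0.205, 0.133 and 0.203 CPM in HEK UL1 KO (-1.05 ± 0.309, adjusted p = 0.0216), and had -1.09 ± 0.348, adjusted p = 0.141 in NO. The calls of SNORD26, SNORD28 and SNORD22 were each lost without some 1 of the libraries.

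SNHG14 rose most in CN. It lies at chr15:24823608-25419462, plus strand. It is the long host of the SNORD115 and SNORD116 arrays and contains SNRPN and SNURF on the same strand, so its count includes their reads. It was at 0.832, 0.73 and 0.417 CPM in HEK WT and at 1.53, 1.43 and 2.21 CPM in HEK UL1 KO (1.37 ± 0.255, adjusted p = 0.00184), without overlap. In NO it was at 5.39, 3.87 and 16 CPM in HEK WT and at 15.3, 14 and 10.4 CPM in HEK UL1 KO (0.64 ± 0.411, adjusted p = 0.445), where HEK WT replicate 3 lay above the knockout libraries, and without that library the change was 1.5 (adjusted p = 0.00261). MEG8, the host of the other imprinted array, had 0.61 ± 0.411 in CN and 0.62 ± 0.312 in NO and passed in neither.

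SNHG25, SNHG5 and SNHG16 had the highest CPM per kilobase of gene outside the snoRNAs, here scaled to total counts, in CN of HEK WT, with 4.67 ± 2.08, 4.62 ± 1.48 and 3.52 ± 0.768 (SD, n = 3). SNHG1 (3.45 ± 2.91) and GAS5 (2.53 ± 0.492) followed, and neighbours in this order did not differ beyond their SD. The length is that of the whole gene with introns. SNHG16 was at 30.1, 27.3 and 25.8 CPM in HEK WT and at 25.2, 25.5 and 24.6 CPM in HEK UL1 KO in CN (-0.14 ± 0.0761, adjusted p = 0.163) and changed sign, to 0.05 in both fractions, when scaled by total counts. SNORD1C of SNHG16 fell by 1.26 in NO (adjusted p = 0.046). SNHG25 had -0.33 ± 0.227, adjusted p = 0.27 in CN and -0.89 ± 0.28, adjusted p = 0.136 in NO.

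The remaining genes had small differences or few counts. SNHG32, a host of SNORD48 and SNORD52, was at 1.82, 1.82 and 1.77 CPM in HEK WT and at 2.17, 2.24 and 2.36 CPM in HEK UL1 KO in CN (0.32 ± 0.116, adjusted p = 0.0482), without overlap. This call was lost with DESeq2 (adjusted p = 0.291), with no filter, with total-count scaling, and without any 1 of the libraries other than HEK WT replicate 3 (0.31 to 0.34). SNHG27 was lower in CN (-1.32 ± 0.426, adjusted p = 0.0318), on 9 to 44 counts per library and with overlap. It was not called with total-count scaling or without any 1 of the libraries other than HEK WT replicate 3 (-1.48 to -1.07). SNHG9, SNHG11, SNHG19, SNHG21, SNHG22, SNHG26, SNHG29, SNHG30 and EPB41L4A-AS1 did not pass by the gene count in either fraction, with changes from -0.3 to 0.26 in CN. None of their most abundant snoRNAs that were tested passed, apart from SNORD49A in CN. SNORD60 of SNHG19 had -0.95 ± 0.34, adjusted p = 0.183 in NO, SNORA13 of EPB41L4A-AS1 -1.61 ± 0.414, adjusted p = 0.071 and SNORA60 of SNHG11 -0.5 ± 0.406, adjusted p = 0.549. SNORD104 of SNHG25 had -1.07 ± 0.314, adjusted p = 0.114 and SNORD48 of SNHG32 -0.83 ± 0.344, adjusted p = 0.251, and in CN SCARNA15 of SNHG21 had -0.28 ± 0.463, adjusted p = 0.659. SNHG18 was not tested in any comparison and SNHG28 not in CN, for want of counts.

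Genes that work on these RNAs were taken from pathway lists. In CN, 3 of 4 box C/D core genes were lower in HEK UL1 KO, FBL, the methyltransferase (-0.47), SNU13 (-0.34) and NOP58 (-0.29). Over all genes 22.3% were lower in CN and 15.6% higher. Of 4 box H/ACA core genes, DKC1, the pseudouridine synthase (-0.67 ± 0.0861, adjusted p = 0.000177), and GAR1 (-0.65) were lower. Of 11 snoRNP assembly genes 6 were lower, among them ZNHIT6, a box C/D assembly factor (-0.98 ± 0.0747, adjusted p = 6.55e-06), and SHQ1, a chaperone of DKC1 (-0.96 ± 0.0879, adjusted p = 2.04e-05). The list medians were -0.31, -0.48 and -0.24, against 0.04 over all genes. These are gene counts, and NOP56, NOP58 and DKC1 themselves hold snoRNA genes. Without the snoRNA genes 3, 2 and 6 genes were again lower in CN, with the same medians. The box C/D median in NO was -0.66 by the gene count and -0.55 without the snoRNA genes. In NO, edgeR called 0 of these 19 genes, and 6 had an unadjusted p under 0.05, as had 5574 of all 34836 genes. When HEK WT replicate 3 was left out, 4 of 4, 3 of 4 and 4 of 11 were lower by the gene count and none higher, where 15.3% of all genes were lower and 9.87% higher.

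Genes of intron release and of nonsense-mediated decay moved both ways in CN. DBR1, which opens the intron lariat, fell by 0.48 and TFIP11 by 0.71, and AQR rose by 0.34, of 5 in all. Of 14 nonsense-mediated decay genes, 6 were lower, among them SMG1, the kinase of UPF1 (-0.64), and UPF3B (-0.62), and UPF3A was higher (0.83). Of 9 protein-coding decay targets 4 were higher, CDKN1A (1.26), DDIT3 (1.05), GADD45B (0.91) and GADD45A (0.78), all known to respond to stress, and 0 lower. These counts stand beside 22.3% of all genes lower and 15.6% higher. In NO, edgeR called none of these 28 genes, and 5 had an unadjusted p under 0.05, as had 5574 of all 34836 genes. With HEK WT replicate 3 left out, 2 of 5, 5 of 14 and 2 of 9 were lower and none higher, beside 15.3% and 9.87% of all genes.

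Other snoRNA hosts were counted in the same way. Of 215 tested in CN, 111 were lower and 28 higher, with a median of -0.25, beside 13 of 31 lower, 2 higher and a median of -0.22 for the genes described here, and the difference was not tested. These other hosts include RCC1, MATR3 and SEC14L1, which overlap SNHG3, SNHG4 and SNHG20. They also include many ribosomal protein genes, EEF2 and TPT1, which are in the next list too, so these sets are not separate. Ribosomal protein and related genes were listed by symbol as a class known for a 5′ terminal oligopyrimidine run. The starts of these listed genes were not checked one by one. Of 92 tested in CN, 51 were lower and 6 higher, with a median of -0.31. Over all genes 22.3% were lower there and 15.6% higher. In NO, 6 of 216 other hosts were lower and 1 higher, with a median of -0.53, and 4 of 93 of the oligopyrimidine genes were lower, with a median of -0.64, where 0.574% of all genes were lower and 0.365% higher. Counted without the snoRNA genes, 2 other hosts and 2 oligopyrimidine genes were lower in NO, and 107 and 51 in CN. Leaving out HEK WT replicate 3 gave 115 other hosts lower and 4 higher, and 66 oligopyrimidine genes lower, in a fit with 15.3% of all genes lower and 9.87% higher.

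The starts of the host genes are shown because many hosts are known to share this pyrimidine run. In the RefSeq promoter windows of GRCh38.p14, 28 of the 33 genes had an entry, and SNHG6, SNHG9, SNHG15, SNHG25 and MEG8 had none. A C at the annotated start followed by at least 4 bases that were each C or T, on the transcribed strand, was found in 7 of the 28 (25%) and in 4.04% of 27305 promoters. For SNHG12 and ZFAS1, both matches, the start used (28581873 and 49278642) lay inside the annotated gene and not at its 5′ end. Their matches thus depend on which annotated start is used, and the difference from all promoters was not tested. The 30 bases from 10 before the start onward are printed with the run in capitals.
SNHG12: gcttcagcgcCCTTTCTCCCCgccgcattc
SNHG4: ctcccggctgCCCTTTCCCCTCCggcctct
SNHG5: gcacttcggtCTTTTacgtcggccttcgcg
SNHG32: cattttagttCTTTTTgcgaagtgggctcg
ZFAS1: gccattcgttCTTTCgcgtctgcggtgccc
SNHG19: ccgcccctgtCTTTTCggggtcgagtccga
SNHG18: gccgcgccgcCTCCTCCTCCTCCTCCTCCC
By the gene count in CN, the first 3 of these genes were lower, SNHG32 was higher, ZFAS1 and SNHG19 did not pass and SNHG18 was not tested. A match describes letters at an annotated start, which may not be the start used in these cells.

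Markers of the line were measured in the same fits. LIN28B, PAX2, KRT8, KRT18 and VIM all passed the count filter. VIM was lower in HEK UL1 KO, by 1.47 in CN and 1.6 in NO, and KRT8, KRT18 and PAX2 were higher in CN by 2.3, 1.28 and 0.76, and the part of these differences between the lines in the results was not tested. Of 7 markers of other cell types, 4 passed the count filter in CN, at group means of at most 0.772 CPM. All 4 had positive changes in HEK UL1 KO, 3 of them without overlap (PTPRC 0.74, COL1A1 0.75 and COL3A1 1.03), and COL1A1 alone was called. In NO 6 passed the filter, at group means of up to 2.69 CPM (PECAM1 in HEK UL1 KO), and edgeR called 0, with 0 at an unadjusted p under 0.05. HBB did not pass in either fraction, and the part of these markers in the results was not tested.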

How the data were processed

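The authors deposited raw counts per gene symbol for 12 libraries. By the study's methods and the submitters' processing notes, reads of 75 bases were trimmed with cutadapt 3.7, aligned to GRCh38 with STAR 2.7.8 allowing up to 20 alignments per read, and counted with featureCounts. Counting options and annotation release are not given in the sources used here. Counts were refitted with edgeR 4.0.16 (filterByExpr with a minimum of 10 counts, TMM, quasi-likelihood F test) in R 4.3.3, and p-values were adjusted by Benjamini-Hochberg over all genes tested. The snoRNA-to-host ratio was tested with limma 3.58.1 on log2((summed snoRNA counts + 0.5)/(host counts + 0.5)) for loci with a mean of at least 10 counts of each. Host genes and snoRNAs were joined by RefSeq positions and strand, and the strand of 15 member snoRNAs was read from their boxes. Alternatives were total-count scaling, TMM without rRNA genes, other filters, a replicate block, leaving out each library, DESeq2 1.42.0 and, added after seeing the data, counts without snoRNA genes (between fractions also with total-count scaling) and list counts in NO without HEK WT replicate 3. Full values were to go to called genes (at most 12 in CN and 5 in NO by adjusted p), the 3 most abundant per length, GAS5, SNHG1, ZFAS1 and the most abundant snoRNA of each gene. Those chosen beyond this were SNORA61, SNORD49A, SNHG10, SNHG15 and SNHG32. Members and lists were chosen with earlier results of these data known. On simulated data with 200 genes changed by 2 on the log2 scale, 154 of 200 were recovered for NO over 32584 genes and 179 of 200 for CN over 26496 genes. No 2 libraries of a group agreed within sampling noise, and 0 columns were left without a sample.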

Additional observations from a re-analysis of the deposited data

Results flagged for a closer look

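SNHG32 differed between genotypes with opposite signs in the fractions, with every HEK UL1 KO library lower than every HEK WT library in NO and higher in CN. In NO it was at 5.47, 4.73 and 4.67 CPM in HEK WT and at 3.02, 4.14 and 3.4 CPM in HEK UL1 KO, which on the log2 scale was a change of -0.5 ± 0.263 (edgeR, adjusted p = 0.361). In CN the change was 0.32 ± 0.116 (edgeR, adjusted p = 0.0482), a call lost with DESeq2 and in 5 of the 6 fits that left out 1 library. The test of the difference, the interaction over 12 libraries, gave -0.68 ± 0.246 with an unadjusted p of 0.0124 and an adjusted p of 1.0 (edgeR), so a difference between the fractions was not shown. Without its snoRNA genes SNHG32 had 0.04 ± 0.32 in NO and 0.35 ± 0.123 in CN.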

How the results depend on the processing

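The number of host genes called between genotypes in NO was 4 and depended on most settings. It was 0 with total-count scaling, 7 with no filter, 2 with at least 10 counts in every library, 12 with DESeq2, 1 with counts without snoRNA genes, and 1 to 21 when 1 library was left out. Over all genes the main fit called 327. The same alternatives, in that order, called 10, 1190, 143, 1082, 312 and 123 to 9133. With total-count scaling SNHG12 had -2.31 in NO. In CN, 15 host genes were called, 7 with total-count scaling and 11 to 14 when 1 library was left out. Over all genes 10323 were called in CN, 5421 with total-count scaling and 7286 to 10301 when 1 library was left out. Between fractions of HEK WT, 22 were called, 8 without snoRNA genes, 4 without snoRNA genes and with total-count scaling, and 18 to 23 when 1 library was left out. In HEK UL1 KO 21 were called, 16 higher and 5 lower, 25 with total-count scaling (24 and 1), 8 without snoRNA genes and with total-count scaling (6 and 2, against 4 and 19 without snoRNA genes alone), and 18 to 22 when 1 library was left out. The interaction gave 0 in every setting. Of the snoRNAs, 21 were called in NO, 0 with total-count scaling, 36 with no filter, 7 with at least 10 counts in every library, 33 with DESeq2 and 7 to 46 when 1 library was left out. In CN, 27 were called, 18 with total-count scaling, 16 with at least 10 counts in every library and 22 to 28 when 1 library was left out. The ratio was called in 11 loci in CN, 7 with the most abundant snoRNA alone, 6 with a mean of at least 50 counts and 3 to 11 when 1 library was left out, and in NO in 0 in every setting. Among the 16 genes named by the rule, direction changed for SNHG16 with total-count scaling (0.05 in each fraction), for SNHG1 in CN without HEK UL1 KO replicate 3 (-1.04, and up to 1.92 without another library), and for ZFAS1 in CN with DESeq2 (-0.03) and without HEK UL1 KO replicate 2 (-0.04, and up to 0.11 without another library). SNHG32, outside that rule, went from -0.5 to 0.04 in NO with counts without snoRNA genes, which by construction takes the snoRNA reads away. In CN, 11 of the 15 genes were called without each library in turn, and SNHG6, SNHG17, SNHG27 and SNHG32 were not. The cause of the other changes was not tested.

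Same-numbered libraries did not deviate together, with correlations of deviations from group means over 18067 genes of -0.279, -0.219 and -0.419 in NO and -0.0552, -0.211 and -0.388 in CN, so the numbers were not taken as pairs. With the replicate block, 1 host gene was called in NO, 12 in CN, 19 between fractions in each line and 0 in the interaction, with 12 snoRNAs in NO, 21 in CN (not SNORD49A, adjusted p = 0.0591 in edgeR) and 6 ratios in CN and 0 in NO. Over all genes the block gave 225 of 34836 in NO and 8438 of 27234 in CN. Between fractions it gave 9577 of 29340 in HEK WT and 24639 of 34468 in HEK UL1 KO. The remainder of SNHG10 in CN rested on 20 to 67 counts per library and SNORA9 of SNHG15 on 11 to 71, which limits both values.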
